A study of Homo sapiens with 4 samples.

Results

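The genes described here encode the conjugation machinery of autophagy and its ATG4 proteases: ATG7, ATG3, ATG10, ATG12, ATG5 and ATG16L1, with ATG4A, ATG4B, ATG4C and ATG4D. They were chosen by name, as every probe whose only gene symbol in the platform annotation was one of these 10, which gave 15 probes of 31741 on the array (24740 of them with a single symbol, for 18365 genes). Total RNA was compared between 2 lines made from DLD-1, a human colorectal cancer cell line, on 4 single-color Human OneArray Plus arrays labeled with Cy5. DLD-1-miR-21 carried a plasmid for human miR-21 and DLD-1-miR-Vec its empty control vector, pCMV-MIR, with 2 arrays for each line. Each line was a pool of clones picked for GFP and resistant to G418, and both were grown with G418, so the lines share the vector backbone, the reporter and the selection. The labels do not state whether replicate arrays hold RNA of different cultures, so the p-values measure the spread between arrays, which may be technical. The study examined autophagy in these cells, and the comparison asks how the RNA of the conjugation genes differed between the lines.

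Autophagy encloses part of the cytoplasm in a double membrane, the autophagosome, and delivers it to the lysosome. Its membrane is marked by ATG8 proteins (LC3 and GABARAP), small proteins that resemble ubiquitin and are joined to the lipid phosphatidylethanolamine. ATG4 proteases trim newly made ATG8 proteins, ATG7 activates them as an E1-like enzyme, ATG3 carries them as an E2-like enzyme, and a complex of ATG12, ATG5 and ATG16L1 directs ATG3 to the membrane. ATG12 is itself joined to ATG5 by ATG7 and a second E2-like enzyme, ATG10. ATG4 proteases also release ATG8 proteins from the lipid, so they act at both ends of the cycle. Colorectal cancer cells are known to use autophagy to recycle nutrients and to withstand drugs, and ATG16L1 is known in the gut for its part in inflammatory bowel disease.

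The plasmid of DLD-1-miR-21 encodes a miRNA, whose mature sequence is shown with the seed, bases 2 to 8, in capitals. In the genome this miRNA is encoded at chr17:59841273-59841294 on the plus strand of GRCh38.p14 (RefSeq). miRNAs pair through the seed with target messages. The mature miRNA was not measured on these arrays. Each line was a pool of clones, so an effect of miR-21 cannot be told apart from other differences between the pools.
hsa-miR-21-5p: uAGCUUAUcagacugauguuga
Promoter windows from 250 bases before to 50 bases after the RefSeq start were matched for 9 of the 10 genes by symbol, and ATG4D had no entry used here. Those of ATG3 and ATG16L1 are shown because both genes were lower in DLD-1-miR-21 on every probe and hold the most motif matches of the 9. The motif letters were picked after the promoters had been read. Capitals mark matches on either strand to CACGTG, an E-box of the kind bound by TFEB and MYC, and CCGGAAG, the core bound by ETS factors.
ATG3, chr3:112561913-112562212, minus strand: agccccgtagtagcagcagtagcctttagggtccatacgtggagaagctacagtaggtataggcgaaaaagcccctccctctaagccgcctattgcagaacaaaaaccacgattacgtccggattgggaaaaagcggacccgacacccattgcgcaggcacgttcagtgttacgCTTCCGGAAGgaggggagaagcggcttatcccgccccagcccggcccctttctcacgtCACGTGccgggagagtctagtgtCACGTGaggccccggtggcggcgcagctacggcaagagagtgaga
ATG16L1, chr2:233251423-233251722, plus strand: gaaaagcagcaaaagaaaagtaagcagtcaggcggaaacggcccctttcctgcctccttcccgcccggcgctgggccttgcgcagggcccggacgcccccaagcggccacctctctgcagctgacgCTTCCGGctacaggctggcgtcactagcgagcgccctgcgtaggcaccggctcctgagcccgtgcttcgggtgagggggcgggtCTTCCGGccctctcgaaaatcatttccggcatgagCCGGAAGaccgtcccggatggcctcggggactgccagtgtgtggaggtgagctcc
In ATG3 the E-box begins 18 bases before the start site and again at base 6 after it, and the ETS core lies 76 and 73 bases before it on opposite strands, in overlapping letters. ATG16L1 holds the ETS core 124, 40 and 5 bases before its start. CACGTG occurs in 7.26% of all 35116 promoter windows and in 1 of the 10 windows held by the 9 genes. CCGGAAG occurs in 10.3% of all windows and in 5 of these 10 (ATG3, ATG4C, ATG5, ATG7 and ATG16L1). ATG5 has more than 1 window, and not all of them match. The letters were picked after these promoters had been read, so the shares are no test of enrichment. A match describes letters only and shows no binding.

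The arrays were deposited without a common scale. Median intensity was 571 for both arrays of DLD-1-miR-Vec, but 255 and 339 for those of DLD-1-miR-21, so every value below was quantile-normalized, which gives all arrays the same distribution, unless called deposited. Levels are normalized intensities, and a log2 ratio sets DLD-1-miR-21 over DLD-1-miR-Vec after 50 was added, which draws the ratios of dim probes toward 0. The median log2 ratio of all probes was 0.07. A probe is called where the adjusted p of limma, over all 31741 probes, was under 0.05. Over all probes 21.8% were called lower and 23% higher. Of 11 probes for colorectal epithelial markers, 10 lay above the median signal, with 3 called lower and 4 higher. Their summed level was 234823 and 246928 in DLD-1-miR-Vec and 221917 and 225369 in DLD-1-miR-21. In deposited intensities this sum was 300595 and 339284 against 147619 and 154808. The 13 probes for leukocyte, endothelial and fibroblast markers had a median signal at the 21.1st percentile, and none read 0 or less. Their summed level was 7189 and 6609 in DLD-1-miR-Vec against 9345 and 11151 in DLD-1-miR-21, with 5 called higher and 0 lower, but in deposited intensities it was 9805 and 9173 against 5094 and 7441, the other way. Their part in the results below was not tested. PDCD4, a known miR-21 target that inhibits translation, had a dim probe, at the 13.9th percentile of signal, that read 108 and 117 in DLD-1-miR-Vec and 62 and 46 in DLD-1-miR-21 (log2 ratio -0.65, adjusted p = 0.0225 in limma). Without each array in turn its adjusted p was 0.0505 (DLD-1-miR-Vec replicate 1), 0.0918 (DLD-1-miR-Vec replicate 2), 0.0599 (DLD-1-miR-21 replicate 1) and 0.0922 (DLD-1-miR-21 replicate 2). With median centring it was -0.15 and not called (adjusted p = 0.555). Its brighter probe read 781 and 846 against 778 and 753 (log2 ratio -0.08, adjusted p = 0.617), and was called only without normalization (-1.12, adjusted p = 0.00928).

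More conjugation and ATG4 probes were lower than higher in DLD-1-miR-21. Of the 15 probes, 8 were called lower, for ATG3 (both probes), ATG4D, ATG5, ATG10, ATG12 (2 of 3 probes) and ATG16L1, and 2 were called higher, 1 each for ATG12 and ATG7, whose sign turned without normalization. The remaining 5 were not called. Over all 15 probes the median log2 ratio was -0.60. Each line is a pool of clones, so less RNA per cell and fewer cells with the RNA cannot be told apart. The share called lower, 53.3%, stands beside 21.8% of all probes, and 2 of 15 called higher beside 23% of all probes. Among the 10 probes above the median signal 5 were called lower and 1 higher, where 26.4% of all such probes were lower and 28.2% higher. Thresholds taken from the study, a log2 ratio of at least 1 in size with an unadjusted p under 0.05, were met by 5 probes, all lower (ATG3, ATG4D, 2 of ATG12 and ATG16L1), against 12.3% of all probes lower and 10.5% higher. The normalized values of the lines did not overlap for 13 of the 15 probes, with DLD-1-miR-21 below in 10 and above in 3, where 34.8% of all probes were below and 41.4% above. With 2 arrays a line the calls rest on few values. Without DLD-1-miR-21 replicate 2 no probe of the array was called. Leaving out any other array also gave fewer lower and fewer higher calls among the 15, as it did among all probes.

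**Figure D1:**
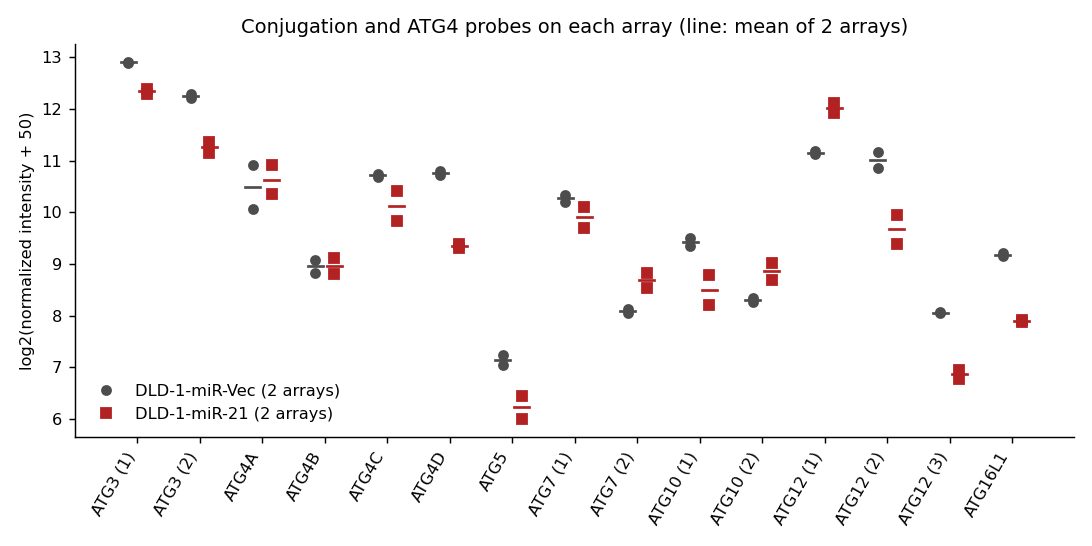
Normalized intensity of each probe on each array, as log2 after adding 50 (vertical axis), with circles for the 2 DLD-1-miR-Vec arrays, squares for the 2 DLD-1-miR-21 arrays and a line at each mean. Probes of a gene are numbered from the brightest. The squares lie below the circles for 10 probes and above them for ATG12 (1), ATG7 (2) and ATG10 (2), an order that is not seen in the deposited intensities, and they overlap for ATG4A and ATG4B.

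The E1-like and E2-like enzymes had 6 probes, of which 3 were called lower and 1 higher, with a median log2 ratio of -0.46. Over all probes 21.8% were lower and 23% higher. ATG3, the enzyme that passes ATG8 proteins to the lipid, had bright probes, at the 88.4th and 82.2nd percentiles of signal. On its probe PH_hs_0002324 the level was 7542 and 7658 in DLD-1-miR-Vec and 5309 and 4987 in DLD-1-miR-21. The arrays of the lines were well apart, with a log2 ratio of -0.56 (95% interval -0.88 to -0.24), a 1.47-fold lower level (adjusted p = 0.0223 in limma). This call was lost without each array in turn, with adjusted p from 0.0666 without DLD-1-miR-Vec replicate 1, 0.081 without DLD-1-miR-Vec replicate 2 and 0.0697 without DLD-1-miR-21 replicate 1 to 0.0907 without DLD-1-miR-21 replicate 2. The other ATG3 probe, PH_hs_0043181, read 4987 and 4721 against 2577 and 2228. Both DLD-1-miR-21 arrays were at about the same level, and the ratio of -1.0 on the log2 scale (-1.37 to -0.64) was a 2.0-fold lower level (adjusted p = 0.00757). Without DLD-1-miR-21 replicate 2 its adjusted p was 0.0597.

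ATG10, which carries ATG12 to ATG5, gave opposite signs on its probes. PH_hs_0019535 read 602 and 679 in DLD-1-miR-Vec and 392 and 247 in DLD-1-miR-21, lower on both arrays, with a log2 ratio of -0.93 (-1.54 to -0.32, adjusted p = 0.0329). It kept its call only without DLD-1-miR-21 replicate 1 (0.0481) when arrays were left out, and had adjusted p of 0.0591 without DLD-1-miR-Vec replicate 1, 0.104 without DLD-1-miR-Vec replicate 2 and 0.0939 without DLD-1-miR-21 replicate 2. The dimmer PH_hs_0048191 read 276 and 257 against 472 and 365, above on both DLD-1-miR-21 arrays but not in the deposited intensities, and its log2 ratio of 0.56 (0.12 to 0.99) missed the threshold at an adjusted p of 0.050007. That call is at the edge: it was made with arrays centred on their medians (0.0353) and without the dimmest 25% of probes (0.0493).

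ATG7, the E1-like enzyme for both ATG8 proteins and ATG12, also divided by probe. PH_hs_0014291 read 1236 and 1133 in DLD-1-miR-Vec and 1052 and 784 in DLD-1-miR-21. Although the lines did not overlap, the second DLD-1-miR-21 array lay well under the first, and the log2 ratio of -0.36 (-0.85 to 0.12) was not called (adjusted p = 0.169). The dimmer PH_hs_0047970 read 216 and 231 against 406 and 321, a log2 ratio of 0.59 (0.18 to 1.00) and a 1.5-fold higher level (adjusted p = 0.0379) that was not seen without normalization. Leaving out any array ended this call, with adjusted p of 0.114, 0.102, 0.104 and 0.0672 without DLD-1-miR-Vec replicate 1, DLD-1-miR-Vec replicate 2, DLD-1-miR-21 replicate 1 and DLD-1-miR-21 replicate 2, as did cyclic loess in place of quantile normalization (0.0537).

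The complex of ATG12, ATG5 and ATG16L1, which acts like an E3 ligase, had 5 probes with a median log2 ratio of -1.20. Of these, 4 were called lower and 1 higher (ATG12, lower without normalization), where 21.8% of all probes were lower and 23% higher. ATG16L1, the subunit that places the complex on the forming membrane, read 520 and 541 in DLD-1-miR-Vec and 186 and 193 in DLD-1-miR-21. Its pairs of arrays were tight, and the log2 ratio of -1.28 (-1.59 to -0.96) was a 2.42-fold lower level (adjusted p = 0.00352), with 0.0551 without DLD-1-miR-21 replicate 2. ATG5, the protein to which ATG12 is joined, had a dim probe, at the 8.5th percentile of signal. It read 83 and 101 in DLD-1-miR-Vec and 38 and 14 in DLD-1-miR-21, in deposited intensities 111 and 106 against 17 and 16. The log2 ratio was -0.92 (-1.45 to -0.39, adjusted p = 0.0229), and as these levels are near the 50 added to them, it moved to -0.61 with 100 added. With median centring it was -0.40 and not called (adjusted p = 0.151). Without DLD-1-miR-Vec replicate 2, DLD-1-miR-21 replicate 1 and DLD-1-miR-21 replicate 2 its adjusted p was 0.0744, 0.052 and 0.0975.

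ATG12, the ubiquitin-like protein of the complex, had 3 probes, and its brightest moved against the others. PH_hs_0034052 read 2267 and 2190 in DLD-1-miR-Vec and 3844 and 4413 in DLD-1-miR-21, a log2 ratio of 0.87 (0.52 to 1.23, adjusted p = 0.01). This higher level depended on the scaling: the deposited intensities were 3113 and 3186 in DLD-1-miR-Vec and 2039 and 2738 in DLD-1-miR-21, lower in the latter, and with median centring the log2 ratio was 0.44 and not called (adjusted p = 0.0876). It was also lost without DLD-1-miR-21 replicate 2 (0.0637). PH_hs_0013658 read 1819 and 2261 against 942 and 620, lower on both DLD-1-miR-21 arrays, with a log2 ratio of -1.35 (-2.0 to -0.70, adjusted p = 0.0147). It lost its call without DLD-1-miR-21 replicate 1 (0.0508) and without DLD-1-miR-21 replicate 2 (0.0824). PH_hs_0047282, a dim probe, read 216 and 218 against 74 and 59, a log2 ratio of -1.20 (-1.55 to -0.85, adjusted p = 0.00487). Its arrays separated the lines clearly, and its adjusted p was 0.0551 without DLD-1-miR-21 replicate 2. Median centring moved it to -0.76.

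The 4 ATG4 proteases had a probe each, all above the median signal, with a median log2 ratio of -0.30. Of these, 1 was called lower and 0 higher, where 26.4% of all probes above the median signal were lower and 28.2% higher. ATG4D read 1734 and 1636 in DLD-1-miR-Vec and 582 and 618 in DLD-1-miR-21. The 2 arrays of each line were close, and the log2 ratio of -1.42 (-1.74 to -1.09) was a 2.67-fold lower level (adjusted p = 0.00315), with 0.0551 without DLD-1-miR-21 replicate 2. ATG4C read 1605 and 1661 against 1317 and 856, below on both DLD-1-miR-21 arrays, which lay far from each other, and its log2 ratio of -0.60 (-1.21 to 0.02) was not called (adjusted p = 0.0978). Without DLD-1-miR-21 replicate 1 it was -0.90 and called (0.0498), and it was called with median centring (0.0235). ATG4B, the family member with the broadest activity on ATG8 proteins, read 406 and 492 against 396 and 506. The lines overlapped, and the log2 ratio was 0.00 (-0.47 to 0.47, adjusted p = 0.994), an interval that leaves room for a change either way. ATG4A, which acts mainly on the GABARAP branch, read 1020 and 1877 against 1876 and 1262. Arrays of each line differed more than the lines did (log2 ratio 0.15, -0.81 to 1.10, adjusted p = 0.761), which leaves its direction unsettled.

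**Figure D2:**
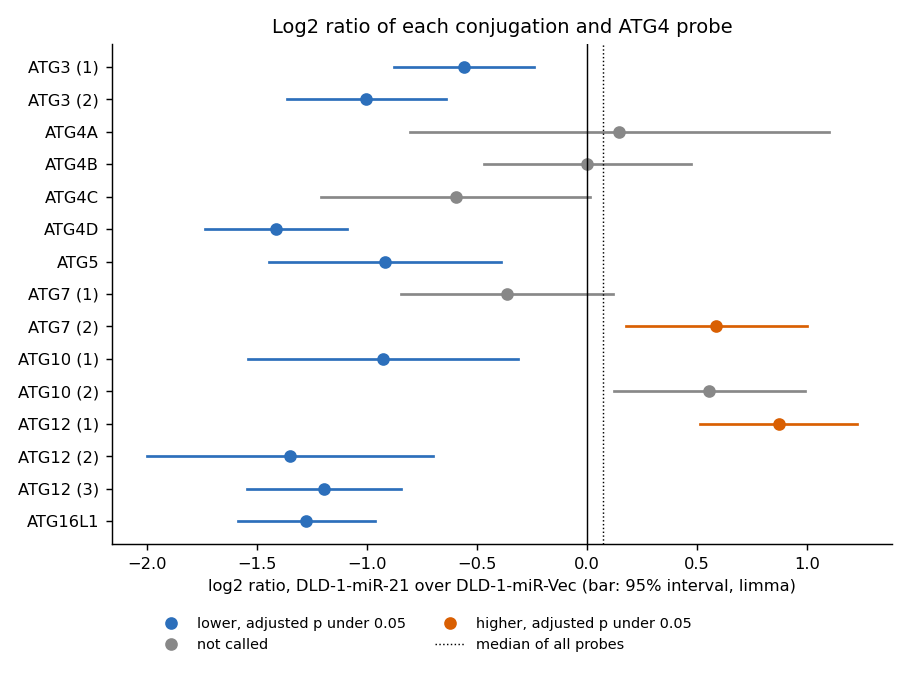
Log2 ratio of each probe, DLD-1-miR-21 over DLD-1-miR-Vec (horizontal axis), with its 95% interval from limma, colored by call, and the median of all probes as a dotted line. The 8 probes called lower run from -1.42 for ATG4D to -0.56 for ATG3 (1), while ATG7 (2) and ATG12 (1) are the 2 called higher after quantile normalization, and both lie below 0 without normalization.

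Probes of a gene were set against each other by testing the difference of their log2 ratios, over all 7461 pairs of probes that share a symbol (5441 genes). Of the 6 pairs among ATG3, ATG7, ATG10 and ATG12, 4 differed at an adjusted p under 0.05, where 45.1% of all pairs did, so such disagreement is common on this array. In ATG12 the brightest probe differed from the second by 2.22 log2 units (1.38 to 3.07, adjusted p = 0.00763 in limma) and from the third by 2.07 (1.52 to 2.62, adjusted p = 0.00378), while the second and the third differed by -0.15 (-0.76 to 0.45, adjusted p = 0.615). In ATG10 the brighter probe's ratio was lower by 1.48 (0.95 to 2.02, adjusted p = 0.0068), and in ATG7 it was lower by 0.95 (0.47 to 1.43, adjusted p = 0.0158). The ATG3 probes differed by 0.44 (-0.02 to 0.91, adjusted p = 0.101), a test that does not show them to be alike. Without DLD-1-miR-21 replicate 2 none of the 6 pairs passed, with adjusted p from 0.0561, and without DLD-1-miR-21 replicate 1 the ATG7 pair did not (0.0747). The files do not say which transcripts each probe can bind. When each gene was given its brightest probe, 5 of the 10 genes were lower (ATG3, ATG4D, ATG5, ATG10 and ATG16L1) and ATG12 was higher. With the mean of its probes ATG12 was lower (log2 ratio -0.56, adjusted p = 0.023). ATG10 (-0.19, adjusted p = 0.443) and ATG7 (0.11, adjusted p = 0.583) were then not called, and none of the 10 genes was higher. Shares over all genes were not taken here, so these gene counts have no background beside them.

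**Figure D3:**
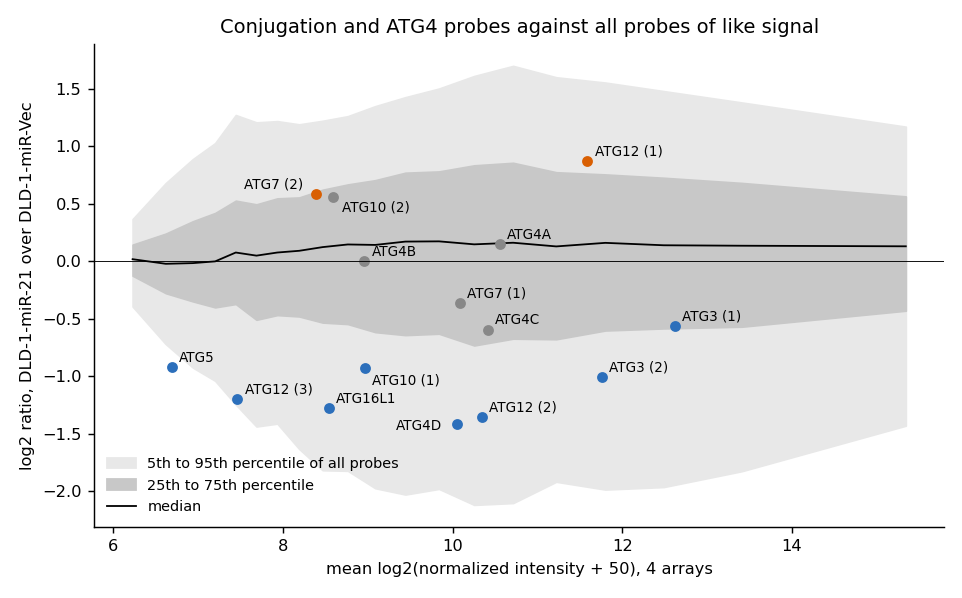
Log2 ratio of each probe (vertical axis) against its mean log2 signal over the 4 arrays (horizontal axis), over bands for the 5th to 95th and 25th to 75th percentiles of all probes in 20 bins of signal. Blue, orange and gray points are lower, higher and not called. The medians of the bins stay between -0.02 and 0.17, and the blue points lie low at both dim and bright signals.

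Normalization set the sign of several probes. In the deposited intensities DLD-1-miR-21 was below DLD-1-miR-Vec without overlap for 15 of 15 probes, but so it was for 63.5% of all probes. Fitted without normalization, 10 of the 15 were called lower and 0 higher, where 44.2% of all probes were lower and 1.31% higher, with a median log2 ratio of -1.61 for the 15 and -0.63 for all probes. The brightest ATG12 probe then had a log2 ratio of -0.41 (adjusted p = 0.185), the dimmer ATG7 probe -0.11 (0.616) and the dimmer ATG10 probe -0.20 (0.395), all above the median of all probes. The 8 probes called lower after normalization were below that median, from -2.48 for ATG4D to -1.25 for ATG5.

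**Figure D4:**
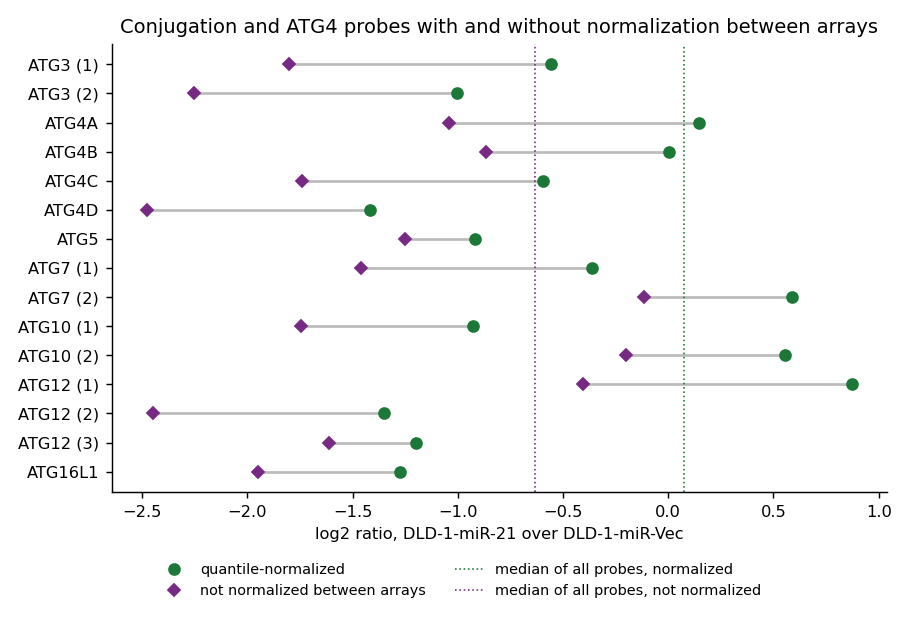
Log2 ratio of each probe (horizontal axis) after quantile normalization (circles) and without normalization between arrays (diamonds), with the median of all probes under each as a dotted line. Every diamond lies below 0, and those of ATG7 (2), ATG10 (2) and ATG12 (1) lie above the median of all probes without normalization, at -0.63.

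Elsewhere in the pathway probes were called in both directions, as over all probes. Probes of 35 other autophagy genes in 5 groups numbered 44, with a median log2 ratio of -0.19. Of these, 14 were called lower, 8 higher and 22 not, and 35 of the 44 lay above the median signal. The 31.8% lower stands beside 21.8% of all probes and 26.4% of those above the median signal. The 8 higher stand beside 23% and 28.2%. The ATG8 proteins, the substrates of the conjugation enzymes, had 8 probes with 5 lower and 0 higher and a median of -1.05. MAP1LC3B read 1365 and 1458 in DLD-1-miR-Vec and 280 and 339 in DLD-1-miR-21 (log2 ratio -2.03, adjusted p = 0.00248 in limma). Its protein, once joined to the lipid, is the usual marker of autophagosomes, and these RNA levels do not measure it. MAP1LC3A read 781 and 914 against 163 and 142 on its dimmer probe (-2.15, adjusted p = 0.00236), while its brighter probe, named after its value was seen, had a ratio of 0.42 (adjusted p = 0.103). Among 7 probes for cargo receptors, which tie cargo to ATG8 proteins, 3 were lower and 2 higher, with a median of -0.03. SQSTM1, the receptor for ubiquitinated proteins, was lower by a log2 ratio of -1.71 (adjusted p = 0.00242) and CALCOCO2, which binds bacteria and damaged mitochondria, higher by 0.82 (adjusted p = 0.00869), though negative without normalization. OPTN, a related receptor, was lower on its dimmer probe (-1.97, adjusted p = 0.00473) and higher on its brighter (0.54, adjusted p = 0.0254), the latter negative without normalization. Without DLD-1-miR-21 replicate 1 CALCOCO2 was not called (0.0544), and the brighter OPTN probe was not called whichever array was left out (0.0711 to 0.0947).

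The kinase complex that starts autophagy had 7 probes with 2 lower and 2 higher, where 21.8% of all probes were lower and 23% higher. ULK1, its kinase, had a log2 ratio of -1.09 (adjusted p = 0.00548) and its partner ATG13 -1.12 (adjusted p = 0.00515) on its dimmer probe, while the brighter ATG13 probe was at 1.48 and not called (adjusted p = 0.0978). RB1CC1, the scaffold, rose from 4721 and 4451 to 14274 and 15824 (1.70, adjusted p = 0.00263), and without normalization its ratio was 0.46 and not called (adjusted p = 0.105). The Beclin lipid kinase complex had 9 probes, 2 lower and 2 higher. BECN1 was at -0.65 (adjusted p = 0.0149) and the regulatory kinase subunit PIK3R4 at -1.13 (adjusted p = 0.00838), with NRBF2 at 0.65 (adjusted p = 0.017) and ATG14 at 0.63 (adjusted p = 0.024), both negative without normalization. Of 13 probes for lipid transfer and effectors of the lipid PI3P, 2 were lower and 2 higher. WIPI2, a PI3P-binding protein that recruits ATG16L1, had 1 of its 4 probes called, at -1.02 (adjusted p = 0.00948), and the others were at -0.40 (adjusted p = 0.0781), -0.11 (0.607) and -0.77 (0.251). Its relative WDR45B was at -1.89 (adjusted p = 0.0024). The lipid scramblase ATG9A was at 0.65 (adjusted p = 0.0177), and was negative without normalization. ATG2B, a lipid transfer protein, was at 0.67 (adjusted p = 0.0316) on its brighter probe, also negative without normalization, and at -0.78 and not called (adjusted p = 0.175) on its dim one. The relatives ATG16L2 and TECPR1 were not called (0.01 and 0.11). Enzymes that conjugate other ubiquitin-like proteins had 8 probes for 6 of 10 genes, 4 lower and 0 higher, with SAE1, a subunit of the SUMO E1 enzyme, at -2.98 (adjusted p = 0.00196) on 1 probe and -0.23 and not called (adjusted p = 0.218) on the other, and NAE1, a subunit of the NEDD8 E1 enzyme, at -1.64 (adjusted p = 0.00879). As at the conjugation genes, all these calls were lost without DLD-1-miR-21 replicate 2. Without DLD-1-miR-21 replicate 1 those of ULK1 (0.0512), BECN1 (0.0607), ATG9A (0.0839) and NAE1 (0.0547) were lost as well, and without DLD-1-miR-Vec replicate 2 those of BECN1 (0.0586) and ATG9A (0.068). NRBF2 (0.0529 to 0.0707), ATG14 (0.0647 to 0.0833) and ATG2B (0.0583 to 0.0964) were not called whichever array was left out. With median centring the increases of NRBF2 (0.36, adjusted p = 0.152), ATG14 (0.24, 0.397), ATG9A (0.27, 0.273), ATG2B (0.39, 0.163), CALCOCO2 (0.47, 0.0767) and OPTN (0.13, 0.619) were not called.

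**Figure D5:**
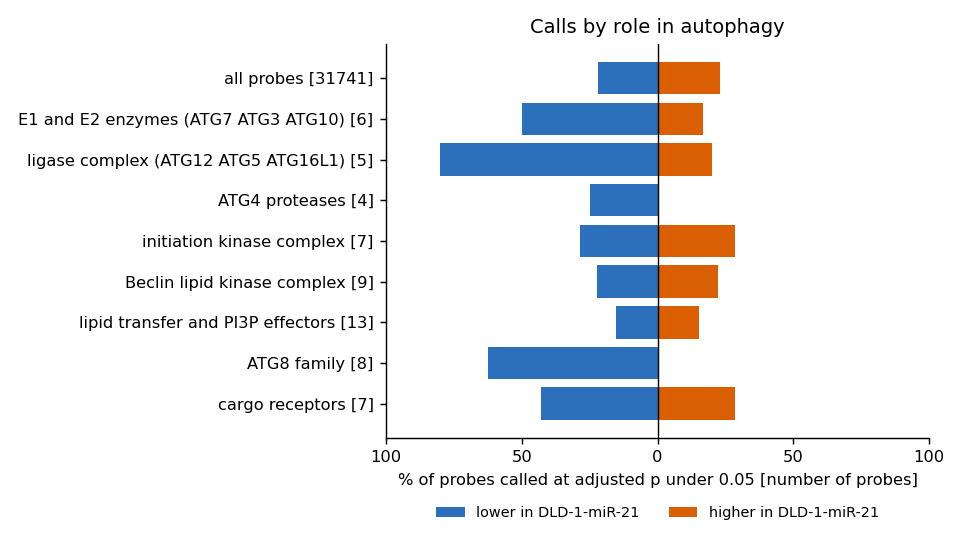
Percent of probes called lower (left) and higher (right) in DLD-1-miR-21 for all probes and for each group of autophagy genes, with the number of probes in brackets. The ATG12, ATG5 and ATG16L1 complex has 4 of 5 probes lower and the ATG8 family 5 of 8, beside 21.8% of all probes. They have 1 of 5 and 0 of 8 higher, beside 23% of all probes. The groups are too small for their shares to be precise.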

How the data were processed

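The authors deposited 1 linear intensity per probe and array, from which a background had been subtracted (some values were below 0), with no detection calls. How the arrays were scanned and their features extracted is not given in the sources used. Medians differed between arrays, so intensities were quantile-normalized, 50 was added and log2 was taken. The offset and the normalization come from an earlier analysis of this table, and the genes, lists and tests were chosen with earlier results of these data known. Lines were compared by lmFit and eBayes of limma 3.58.1 (R 4.3.3) with the line as the only term (residual degrees of freedom 2, prior 2.48) and Benjamini-Hochberg adjustment over all probes. A single value compared by exact permutation of 2 arrays against 2 could not give a two-sided p below 0.333, so none was run. Differences between probes of a gene were fitted in limma on log2 differences per array. Only 4 arrays limit the precision.

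All probes of the 10 genes are named. Of each other list at most the 2 largest increases and 2 largest decreases are named, among called probes whose arrays separate the lines and whose brighter mean exceeds the median probe. Outside that rule, the other probes of a named gene, PDCD4, ATG16L2 and TECPR1 were named after their values were seen. Symbols are those of the platform's annotation and can be outdated. In the lists 2 genes were matched by an older symbol, and some list genes, MIR21 and KRT18 among them, had no probe used here. Alternatives were a replicate block, cyclic loess, median centring, no normalization, offsets of 25 and 100, dropping the 25% or 50% dimmest probes, robust eBayes with a variance trend, averaging a gene's probes, and dropping each array in turn. The limma fit was tried on simulated log2 values with independent noise. Such values cannot show errors of normalization or variation shared by replicate arrays.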

Additional observations from a re-analysis of the deposited data

How the results depend on the processing

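Each alternative is set against 8 lower and 2 higher calls among the 15 conjugation and ATG4 probes, 5 lower past the thresholds of the study, 4 of 6 differing pairs, and 14 lower and 8 higher calls among the 44 other autophagy probes. Leaving out an array in turn gave fewer lower and fewer higher calls among the 15 probes, as it did among all probes. The other autophagy probes then had fewer higher calls. No probe was called and no pair differed without DLD-1-miR-21 replicate 2. A fit on 3 arrays assumes that the lone array of a line varies like the other line. ATG4A turned negative without DLD-1-miR-Vec replicate 1 (-0.2723) and DLD-1-miR-21 replicate 1 (-0.1307), with a range of -0.2723 to 0.5474 over the arrays left out, ATG4B without DLD-1-miR-Vec replicate 1 (-0.1182) and DLD-1-miR-21 replicate 2 (-0.1659), ranging from -0.1659 to 0.1665, and the difference of the second and the third ATG12 probes ranged from -0.3379 to 0.0482, turning positive without DLD-1-miR-21 replicate 2 and, at 0.0259, with an offset of 25. Replicate numbers are shared by the lines but no label says that they mark a pairing, and the deviations of arrays with the same number correlated at -0.07. With the number as a block 7 were lower and 1 higher, and 4 other autophagy probes were higher. The bright ATG3 probe (adjusted p = 0.0625 in limma) and the dimmer ATG7 probe (0.0727) were no longer called. Of all 31741 probes 5744 were then lower and 5678 higher.

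Cyclic loess left 8 lower calls and 1 higher, where 7273 of all 31741 probes were lower and 6123 higher, and put ATG4B at -0.0629. Median centring left 2 higher calls among the other autophagy probes, while 7616 of all 31741 probes were higher. It put ATG4A at -0.19 and ATG4B at -0.0142. Without normalization 44.2% of all probes were lower and 1.31% higher. In that fit 0 conjugation and ATG4 probes were higher, 11 were past the study's thresholds, and 32 other autophagy probes were lower and 0 higher. The log2 ratios of ATG4A (-1.04), ATG4B (-0.86), ATG7 (-0.11), ATG10 (-0.20) and ATG12 (-0.41) on the probes that had been at or above 0 turned negative, as did NRBF2 (-0.49), ATG14 (-0.61), ATG9A (-0.58), ATG2B (-0.46), CALCOCO2 (-0.38) and the brighter OPTN probe (-0.72). An offset of 100 left 3 past the study's thresholds. The share of all probes past those thresholds was not taken for any alternative, so such counts have no background here. Without the dimmest 25% of probes 6 of 13 were lower and 3 higher, beside 5964 and 6209 of all 23806 probes left. Without the dimmest 50% only 10 of the 15 were tested, with 5 lower, 1 higher and 3 past the study's thresholds. Of all 15871 probes then left, 4324 were lower and 4685 higher. Only the ATG3 pair and that of the brightest and second ATG12 probes remained, and the ATG12 pair differed. Averaging the probes of each gene left 0 genes higher. The causes were not tested. The second ATG3 probe and ATG4D kept their call in 12 of 13 alternatives, ATG16L1 in 11 of 12 and the dimmest ATG12 probe in 10 of 11, and each lost it without DLD-1-miR-21 replicate 2.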
